A study of Danio rerio with 4 samples.

Results

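The Ctrl-Specific peaks described here are the places where H3K4me3 was called in Ctrl hearts and no DN call touched the same bases. They were chosen by 3 conditions: a peak of the Ctrl list on chromosomes 1 to 25 that was under 3000 bp wide, that shared no base with any peak of the DN list, and that did not lie on chromosome 4 from position 27000000 on. Of 16266 Ctrl peaks that met the limits on width and chromosome, 5243 (32.2%, 95% interval 31.5 to 33) were Ctrl-Specific in this sense and 11023 were Overlapped Peaks. The full lists hold 17234 Ctrl and 34889 DN peaks. Since the overlap and the Ctrl list's own values chose the members, their number, width and strength are descriptions and carry no test.

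Both lists came from whole ventricles of adult zebrafish at 7 days post-amputation (dpa), taken after the outflow tract and atrium were removed. Ctrl hearts carried the transgene ubi:loxp-DsRed-STOP-loxp-DN-xBrg1, which encodes a dominant-negative Xenopus Brg1 behind a floxed stop. DN hearts carried that same transgene together with kdrl:CreER, in which kdrl drives the recombinase in endothelial cells, the endocardium included. Before amputation, fish of both groups were treated with 4-hydroxytamoxifen (4-HT), which activates CreER. The paper's results give 3 days of treatment, while its methods describe a shorter bath and amputation 3 days after it. About 25 hearts were pooled for each chromatin immunoprecipitation, and each group had 1 H3K4me3 library, so no difference has a replicate check. Endothelial cells gave only part of the chromatin, and fewer marked cells and less signal per cell cannot be told apart. Since no gene annotation on the GRCz11 assembly was used here, neither the genes at these positions nor the marker genes of heart cell types were placed against the peaks.

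H3K4me3, the trimethylation of lysine 4 on histone H3, marks nucleosomes around the start sites of active genes. It is written by the SET1 and MLL methyltransferase complexes and removed by demethylases such as the KDM5 family. Brg1 is the ATPase of the SWI/SNF complex, which slides and evicts nucleosomes, and the dominant-negative form lacks that activity. An active promoter usually gives an H3K4me3 peak that spans several nucleosomes.

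The distance to the nearest DN peak divided the Ctrl-Specific peaks into those beside a DN peak and those far from any. For 757 peaks (14.4%, 13.5 to 15.4) the nearest DN peak was under 1 kb away. It was 1 to 10 kb away for 2126 (40.5%, 39.2 to 41.9) and over 10 kb away for 2360 (45.0%, 43.7 to 46.4). The median distance was 7990 bases, with quartiles of 2116 and 26716 bases. Near misses were a small share of the members, as 101 (1.93%) lay under 100 bases from a DN peak. Counted per base, however, members were densest there. The last 100 bases before 1 kb held 64, and the whole kb from 9 to 10 kb held 133. At the other end, 741 (14.1%) lay over 50 kb and 94 (1.79%) over 200 kb from any DN peak. The intervals of shares here and below are exact (Clopper-Pearson), and those of medians come from order statistics. Both cover counting error only, since peaks of 1 library are not replicates.

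**Figure D1:**
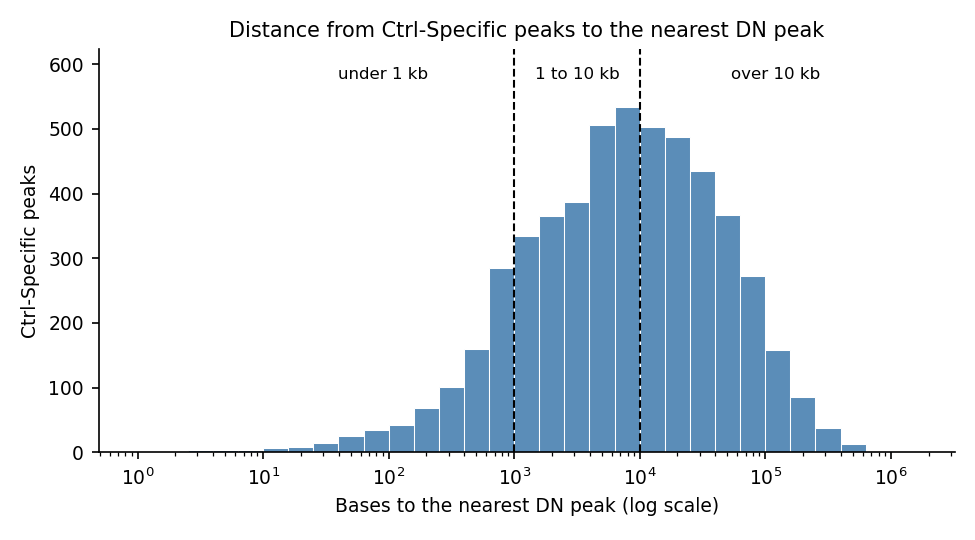
Number of Ctrl-Specific peaks (y axis) by the bases to the nearest DN peak (x axis, log scale), with dashed lines at 1 and 10 kb. The counts to the left, between and to the right of the lines are 757, 2126 and 2360. On the log scale, where bars cover more bases with distance, they form a single broad hump around the median of 7990 bases.

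The distances change smoothly across the limits used. There were 64 peaks in the last 100 bases before the 1 kb limit against 70 in the 100 bases after it, and 133 at 9 to 10 kb against 107 at 10 to 11 kb. The edge of the overlap rule was as gradual. Among Overlapped Peaks, 14 shared fewer than 10 bases with a DN peak, and 13 Ctrl-Specific peaks lay under 10 bases from one. Just inside the rule, chr4:7391630-7391829, 200 bp wide, lay directly against a DN peak of 419 bp with no base between them. The next were chr5:65842358-65842835 and chr2:35844355-35844963, at 2 and 3 bases. Just outside it, chr12:28931019-28931592 and chr14:32857594-32858250 each shared 2 bases with a DN peak. The width limit removed no Ctrl-Specific peak, because each of the 200 Ctrl peaks of 3000 bp or more outside the chromosome 4 long arm overlapped a DN peak. At the chromosome 4 limit, the last peak kept was chr4:26912716-26913144 with a fold of 3.67, and the first left out was chr4:27014624-27014932 with a fold of 3.37.

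Ctrl-Specific peaks were narrow. Their median width was 360 bp (quartiles 227 and 585.5), against 577 bp (337 and 964) for the Overlapped Peaks of the same list. Peaks under 300 bp made up 40.9% of the Ctrl-Specific and 19.7% of the Overlapped set. The narrowest width listed was 200 bp in both sets. Members in each distance class were still at this floor at percentile 15. Overlapped Peaks were at it at percentile 4 and had 203 bp at percentile 5. Only 10 Ctrl-Specific peaks reached 2000 bp. They therefore hold 32.2% of the peaks within the limits but 22.2% of the bases these cover, 2.32 of 10.4 Mb. The distance to a DN peak made little difference to the width, which had medians of 370 bp under 1 kb (95% interval 333 to 403), 371 bp at 1 to 10 kb (355 to 394) and 348.5 bp over 10 kb (333 to 361).

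They were also weak calls within the Ctrl list. Ranked by −log10 q, the caller's measure of how far a region stands above background, their median percentile in the Ctrl list was 29.1, against 60.4 for Overlapped Peaks. The median −log10 q was 1.61 against 2.28, and the fold over background had a median of 3.38 against 3.8. The lowest −log10 q in the list, 1.20, was shared by 712 of them (13.6%) and by 302 Overlapped Peaks (2.74%). A −log10 q of at least 4, the value that corresponds to the q-value setting given in the methods, was reached by 57 (1.09%) against 1539 Overlapped Peaks (14%). Strength differed little between the distance classes as well. The median percentiles were 28.8, 28.3 and 30.2 from the nearest class to the farthest, and 7, 23 and 27 peaks reached a −log10 q of 4.

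The lists hold no read counts, but the fold values fall on steps from which a mean depth in fragments was worked out, on the assumption that fold is depth plus 1 over background plus 1 after scaling. On this scale the shallowest Ctrl peak had 8 fragments and the shallowest DN peak 7. These whole numbers are estimates, since the scaling taken had 55 matches among the listed Ctrl folds against 29 for the next best. For DN it had 106 against 55. The median depth was 8.69 fragments in Ctrl-Specific and 9.89 in Overlapped Peaks. Under 9 fragments lay 61.7% of the Ctrl-Specific peaks (3234) and 27.9% of the Overlapped Peaks. Under 14 fragments lay 99.7% of the Ctrl-Specific peaks (5227). Most of these calls thus stood within 1 fragment of the shallowest depth listed. Whether the DN library had fewer fragments there cannot be read from a list that omits the region.

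The share of Ctrl peaks without DN overlap fell steadily with strength. It was 65.2% in the weakest decile of the Ctrl list, 33.1% in the fifth decile, 10.4% in the ninth and 3.44% in the strongest. With width it was 52.8% at 200 to 250 bp and 33.3% at 300 to 400 bp, stayed near that level with 36.3% at 500 to 700 bp, then dropped to 8.86% at 1000 to 1500 bp and 2.41% from 2000 bp on. A wider peak also offers more bases for a DN peak to touch, so width and overlap are not independent measures.

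**Figure D2:**
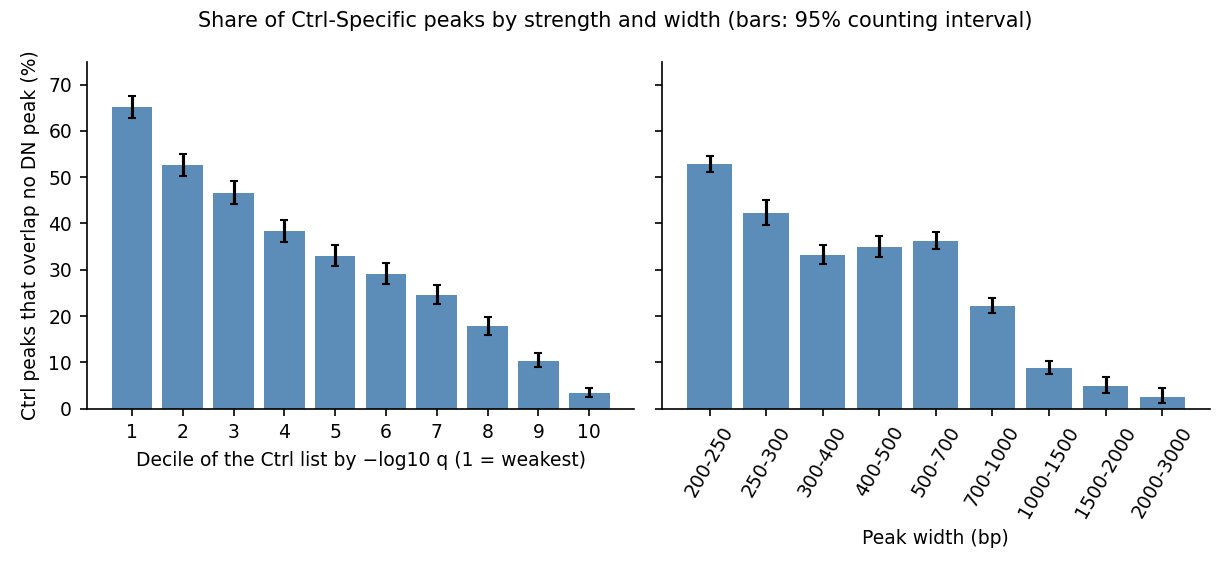
Percent of Ctrl peaks within the limits that overlap no DN peak (y axis), by decile of the Ctrl list ranked by −log10 q (left, 1 is the weakest) and by width in bp (right), with bars for the exact 95% interval. The share falls from 65.2% to 3.44% across the deciles, and with width it is level near 33.3% to 36.3% between 300 and 700 bp and 2.41% in the widest class.

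The strong Ctrl-Specific peaks were a small and narrow set. In the strongest decile of the Ctrl list, 54 Ctrl-Specific peaks had a median width of 260 bp (quartiles 228 and 323), while 1514 Overlapped Peaks there had a median of 793 bp. In the lower 50% of the list the gap was smaller, with medians of 429.5 and 535 bp. Strong Ctrl-Specific calls were thus narrower than weak ones, the opposite order to the Overlapped Peaks. The rule itself leaves few wide members, since 2.41% of Ctrl peaks from 2000 bp on were Ctrl-Specific. The −log10 q is also an average within a region. Whether these limits account for the order was not tested. Of the 54, 7 lay under 1 kb, 21 at 1 to 10 kb and 26 over 10 kb from a DN peak.

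The strongest of all belonged to the class over 10 kb, where the median distance to a DN peak was 30934.5 bases. It was chr24:12508823-12509064, 242 bp wide, with a fold of 7.15, a −log10 q of 10.1 and a mean depth of 19.6 fragments, and the nearest DN peak was 18.7 kb away. That DN peak, chr24:12489856-12490089, had a depth of 11.1 fragments and overlapped another Ctrl peak. In the same class, chr19:21800608-21800870 (263 bp, depth 16.2, fold 5.97) had no DN peak within 32.2 kb and no Overlapped Ctrl peak within 127 kb. Next in strength, chr2:57625370-57625744 (375 bp, depth 16.1, fold 5.94), lay 14.2 kb from a DN peak.

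At 1 to 10 kb the strongest members were of like width and depth. chr5:43283373-43283659 (287 bp, depth 17.4, fold 6.39) lay 7.96 kb from a DN peak of 200 bp. chr10:12110330-12110576 (247 bp, depth 17.2, fold 6.34) had a strong neighbour 5.93 kb away, the DN peak chr10:12104151-12104398, with a depth of 19.4 fragments, at percentile 98.9 of the DN list. This DN peak overlapped a Ctrl peak, so Ctrl hearts had both sites listed and DN hearts only 1 of the pair. chr12:47012057-47012339 (283 bp, depth 15.1) lay 1405 bases from a DN peak of 547 bp and 8.25 fragments.

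In the class under 1 kb, the strongest was chr2:14014148-14014376 (229 bp, depth 16.3, fold 6.03), 743 bases from a DN peak of 200 bp and 9.44 fragments. chr22:37616854-37617134 (281 bp, depth 15.2) lay 862 bases from a DN peak of 1683 bp and 11.4 fragments. chr25:26386642-26387022 (381 bp, depth 14) lay 745 bases from a DN peak of 422 bp and 7.48 fragments, which overlapped no Ctrl peak. All 9 of these peaks were between 229 and 381 bp wide, so each was high in depth but no wider than the typical weak member.

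The widest members had depths on both sides of the median of all members, 8.69 fragments. Under 1 kb it was chr7:64634394-64636352, with 1959 bp, 8.45 fragments and a DN peak of 278 bp only 13 bases away. Over 10 kb it was chr15:11349647-11351853, with 2207 bp and 9.46 fragments, 13.9 kb from a DN peak. The widest of all, chr15:40920362-40923044 (2683 bp), was the deepest of those named here with 11 fragments, at percentile 81.2 of the Ctrl list and 1869 bases from a DN peak. The next widest, chr12:24311926-24314232 (2307 bp, 9.09 fragments), lay 7.61 kb from a DN peak and 249.7 kb from any Overlapped Ctrl peak.

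The peaks most remote from any DN peak, picked after their values were seen, differed in strength. On chromosome 7, chr7:43554486-43555274 (789 bp, 8.23 fragments) and chr7:43387676-43387897 (222 bp, 11.5 fragments) stood at percentiles 12.8 and 83.6 of the Ctrl list and had the same nearest DN peak, 878 and 711 kb away. chr18:4508100-4508401 (302 bp, 9.28 fragments, percentile 47.2) was 570 kb from a DN peak and paired with another Ctrl-Specific peak.

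The share of members whose nearest DN peak overlapped a Ctrl peak differed a little between the classes. The nearest DN peak overlapped some other Ctrl peak for 28.0% of members under 1 kb (24.8 to 31.4), 34.9% at 1 to 10 kb (32.9 to 37.0) and 32.5% over 10 kb (30.6 to 34.4). Of all DN peaks, each counted once, 31.5% overlapped a Ctrl peak. The values by class are counted per member, so a DN peak nearest to several members enters more than once. The intervals do not allow for this, and the shares cannot be set closely against the 31.5%. The medians that follow are also counted per member. Near neighbours ranked at a median percentile of 41.3 among DN peaks, with a median width of 635 bp. Those over 10 kb away had 51.5 and 511 bp, against a median width of 596 bp for the DN list as a whole. The median distances to the nearest Overlapped Ctrl peak were 4199, 9672 and 61207 bases from the nearest class to the farthest. An Overlapped Peak touches a DN peak by definition, so the classes themselves largely fix this order.

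Most Ctrl-Specific peaks were not grouped with another member, although single members lay a median of only 7821 bases from a DN peak. The same count was not made for Overlapped Peaks, so the share in clusters cannot be called particular to the members. With a cluster defined as successive members under 10 kb apart and no DN peak between them, 846 members (16.1%, 15.1 to 17.2) formed 385 clusters and 4397 were single. There were 332 clusters of 2 peaks, 34 of 3, 16 of 4, 2 of 5 and 1 of 6. Every chromosome had clusters, from 4 on chromosome 4 to 28 on chromosome 20. The median cluster spanned 4.69 kb and the longest 21.7 kb. Clustered members were somewhat wider than single ones (median 408.5 against 350 bp) and of about the same strength (median percentile 29.8 against 28.9). The share in clusters was 9.38% under 1 kb, 18.2% at 1 to 10 kb and 16.4% over 10 kb, and the condition of no DN peak in between bears on the first of these.

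The fullest cluster, chr25:25899586-25912205, held 6 Ctrl-Specific peaks over 12.6 kb. The peaks were 332, 747, 202, 2175, 208 and 720 bp wide, with folds of 3.19 to 3.85 and depths of 8.12 to 10.03 fragments. The nearest DN peaks lay 127 kb to the left and 7.71 kb to the right. chr1:28278460-28300139 held 5 peaks of 475 to 1521 bp over 21.7 kb, with depths of 8 to 8.95 fragments, and DN peaks 8.82 kb to the left and 61.0 kb to the right. chr2:268595-289320 held 5 of 356 to 1229 bp over 20.7 kb, with depths of 8 to 11.1 fragments, and sat in a gap of 29.7 kb in a stretch where both lists were dense. The absence of DN peaks inside each of the 3 follows from the definition of a cluster and is not a separate result.

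**Figure D3:**
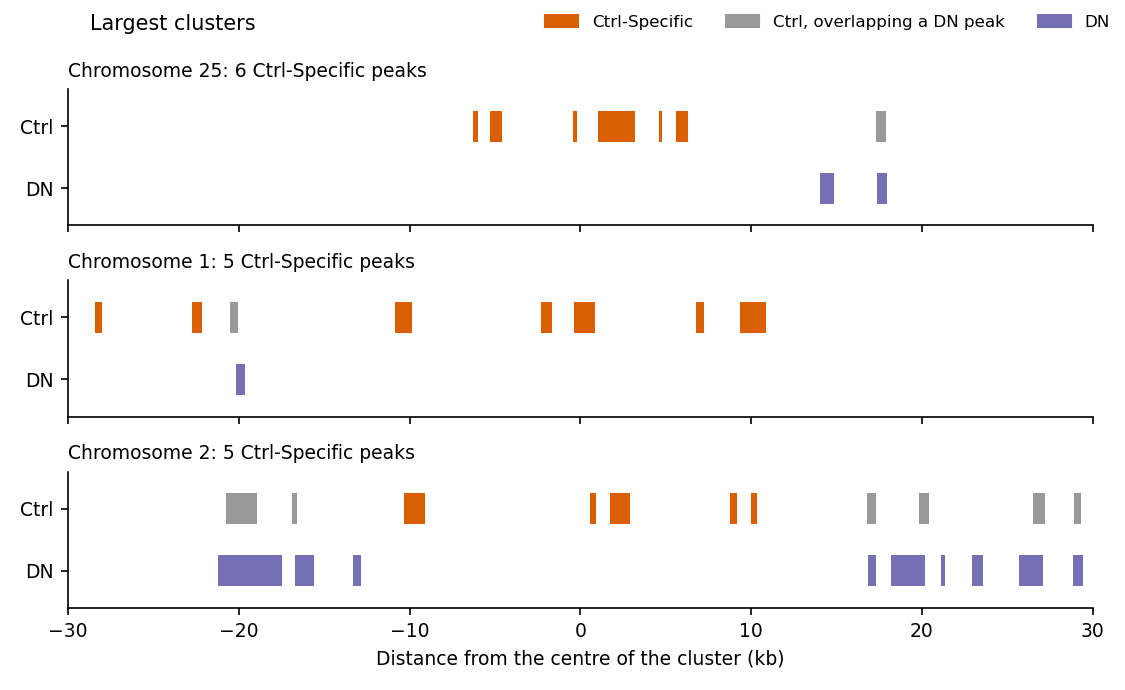
Peaks in the 3 largest clusters, by distance from the cluster's centre in kb (x axis), with Ctrl peaks above DN peaks, Ctrl-Specific in orange, other Ctrl in grey and DN in purple, block lengths to scale. The clusters of 6, 5 and 5 Ctrl-Specific peaks face stretches without DN peaks of 147, 91.5 and 29.7 kb.

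Stretches between successive DN peaks gave a second view of the same grouping. Every Ctrl peak within the limits that lies wholly in such a stretch is Ctrl-Specific by definition. Of 34914 such stretches, 4168 held a Ctrl-Specific peak: 3413 held 1, 558 held 2 and 197 held at least 3. In all, 1830 members (34.9%) shared a stretch with another. The fullest was chr24:12134848-12357030, where 222 kb without a DN peak held 12 Ctrl-Specific peaks of 200 to 1408 bp and 8 to 10.4 fragments, 11 of them in clusters. The next 4 held 8 each: chr5:42454926-42727435 (273 kb), chr8:38565894-38803901 (238 kb), chr5:54101460-54280258 (179 kb) and chr20:12973166-13138079 (165 kb). All 8 members of the first of these were in clusters, against 3 of 8 on chromosome 8.

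Ctrl-Specific peaks lay on every chromosome, from 79 on the kept part of chromosome 4 to 317 on chromosome 5. Their share of the chromosome's Ctrl peaks ranged from 22.1% (17.9 to 26.8, 79 of 357) on chromosome 4 and 26.6% (23.6 to 29.7, 220 of 828) on chromosome 22 to 37.8% (34.0 to 41.7, 243 of 643) on chromosome 12 and 38.4% (34.2 to 42.6, 206 of 537) on chromosome 18. The intervals of 19 chromosomes held the share over all chromosomes, 4 lay above it (9, 12, 18 and 20) and 2 below (4 and 22). The lower limits for chromosomes 20 and 9, 32.28% and 32.42%, were close to that share, 32.23%. These intervals treat neighbouring peaks as independent and make no allowance for looking at 25 chromosomes. They do not establish that a chromosome differs. Single windows of 1 Mb also weigh on the shares of chromosomes 22 and 18. On chromosome 22, windows near its start held 10 members among 161 Ctrl peaks and 18 among 145. On chromosome 18, neighbouring windows held 38 of 57, 10 of 16 and 11 of 12. The shares without these windows were not computed, so these extremes need not describe the whole chromosomes. Among the weaker 50% of Ctrl peaks the share ran from 34.6% on chromosome 22 to 56.8% on chromosome 18, and among the stronger 50% from 10.1% on chromosome 4 to 21.8% on chromosome 1. The left-out long arm of chromosome 4 stood apart with 442 of 756 (58.5%, 54.9 to 62.0), so the 2 sides of that limit held the lowest share and one far above any whole chromosome.

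**Figure D4:**
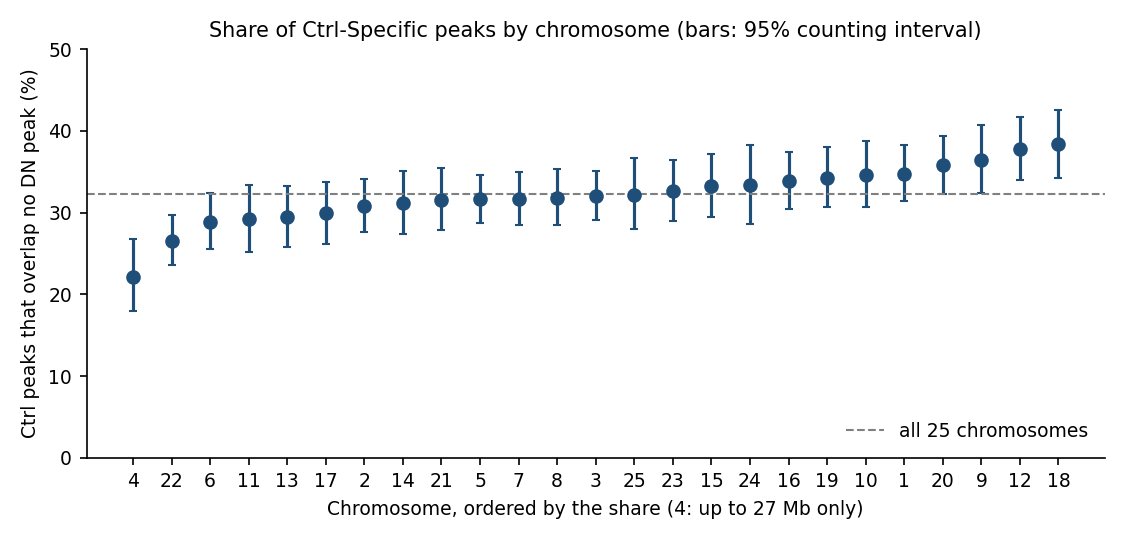
Percent of Ctrl peaks within the limits that overlap no DN peak (y axis) on each chromosome, ordered by that share, with bars for the exact 95% interval and a dashed line at 32.2%. Chromosomes 4 and 22 lie below the line and 20, 9, 12 and 18 above it, and the other 19 intervals cross it. Single windows of 1 Mb weigh on the shares of chromosomes 22 and 18, which were not computed without them.

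The distance classes differed between the chromosomes with the most and the fewest DN peaks per Mb, 22 and 9. Chromosome 22 had the most Ctrl-Specific peaks per Mb (5.62) and the most DN peaks per Mb (43.1). There 23.2% of members lay under 1 kb from a DN peak and 33.6% over 10 kb, with a median distance of 4.24 kb. The start of the chromosome weighs on these values. Its windows from 1 to 2 and from 2 to 3 Mb held 202 and 275 DN peaks. In them 13 and 7 members lay under 1 kb from a DN peak, and 1 and 0 over 10 kb. In the first Mb, with 114 DN peaks, the counts were 6 and 0. The rest of chromosome 22 was not computed separately. Chromosome 9 had 18.5 DN peaks per Mb, and there 60.7% of members lay over 10 kb from one, with a median of 15.2 kb. Whether the density of the DN list accounts for the distances was not tested on any chromosome.

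At the scale of 1 Mb, a few windows held many members. Of 1308 windows, 102 (7.80%) held no member, the median held 3, and 94 windows with at least 10 held 1274 members (24.3%). These 94 were picked by their number of members, and their share of all Ctrl peaks was not computed. The 24.3% therefore does not separate members from a high density of Ctrl peaks. The fullest was chromosome 18 from 31 to 32 Mb, where 38 of 57 Ctrl peaks (66.7%, 52.9 to 78.6) were Ctrl-Specific. They were 200 to 1809 bp wide and 8 to 10.9 fragments deep, 22 were in clusters, and 4, 28 and 6 fell in the classes from near to far. Most of the whole DN list is DN-Specific, as 31.5% of it overlaps a Ctrl peak. This window held 57 DN peaks, 34 of them DN-Specific, so it was no stretch bare of DN peaks. The window to its right held 11 Ctrl-Specific peaks of 12 (91.7%), the highest share among the 755 windows with at least 10 Ctrl peaks, whose median share was 30%. The window to its left held 10 of 16. The window with 38 members was picked as the fullest of 1308, so its share can run high through that choice alone. The 91.7% is likewise a maximum. The exact interval allows neither for the picking nor for neighbouring peaks in clusters, so it does not establish a local loss.

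On chromosome 1, the windows from 27 to 28 and from 28 to 29 Mb held 29 of 39 (74.4%, 57.9 to 87.0) and 23 of 28 (82.1%, 63.1 to 93.9), and the cluster of 5 described above lies in the second. DN peaks numbered 26 and 25 there, with 17 and 19 of them DN-Specific. The windows on either side had 6 of 18 and 2 of 10. DN-Specific peaks also make up most of the whole DN list, of which 31.5% overlap a Ctrl peak. Chromosome 23 from 12 to 13 Mb held 22 of 35 (62.9%) beside 32 DN peaks. The windows with 29, 23 and 22 members were also picked by their number of members. The same limits therefore hold for their shares and intervals.

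The reverse was seen at the start of chromosome 22. The windows from 1 to 2 and from 2 to 3 Mb had the most Ctrl peaks of all, 145 and 161, and 18 (12.4%, 7.53 to 18.9) and 10 (6.21%, 3.02 to 11.1) of these were Ctrl-Specific, 13 and 7 of them under 1 kb from a DN peak. The DN list held 202 and 275 peaks there. The first Mb held 22 of 70 (31.4%), beside 114 DN peaks.

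**Figure D5:**
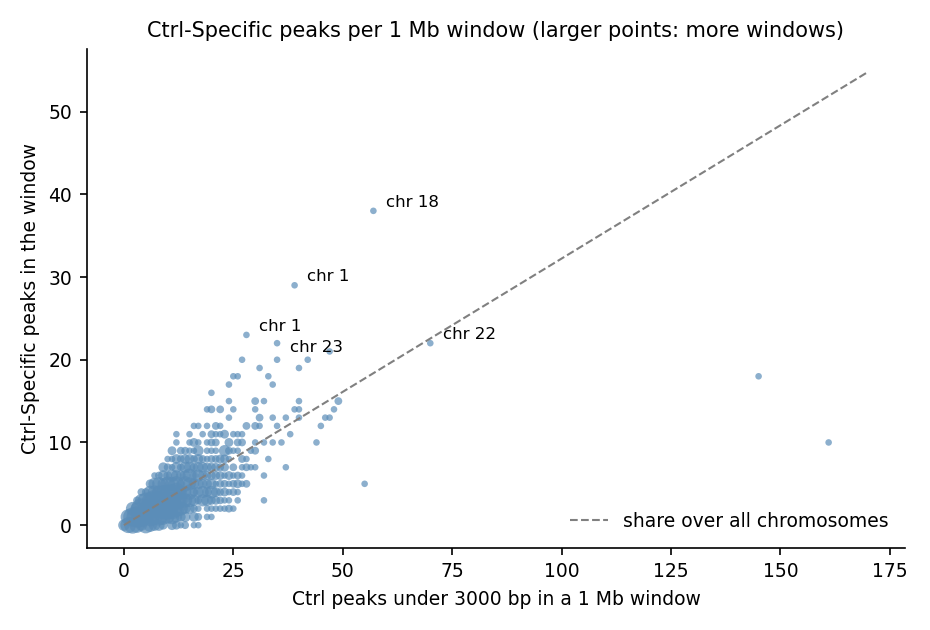
Ctrl-Specific peaks (y axis) against all Ctrl peaks under 3000 bp (x axis) in each 1 Mb window, larger points standing for more windows, with the dashed line at the overall share of 32.2%. The windows of chromosomes 18 and 1 with 38, 29 and 23 Ctrl-Specific peaks lie above the line, and those of chromosome 22 with 145 and 161 Ctrl peaks far below it.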

How the data were processed

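The authors trimmed paired reads with Trimmomatic 0.39, aligned them uniquely to GRCz11 with STAR 2.7.8a, removed duplicates with Picard 2.25.0, drew the same number of read pairs per condition and called broad peaks per condition with MACS2 (q-value setting 0.0001, no local background). Whether input libraries entered the calls is not given in the sources used here, and they were not analysed. The deposited fold is a ratio to background. The −log10 p and −log10 q and a score made from −log10 q were also deposited by the authors. In broad mode these are averages within a region, and the sources used here do not say whether they cover its full width. The mean depth of a wide peak therefore need not hold over all its bases. Many of the −log10 q values lie below the setting, and the sources used here give no separate cutoff for broad regions. Values below the setting are therefore not known to be averages over calls that passed it. The lists give no reads behind a peak, which limits precision.

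Overlaps (at least 1 bp) were computed with Python 3.11.15, numpy 2.4.6 and pandas 2.3.3 and checked with bedtools 2.31.1, intervals with scipy 1.17.1 and plots with matplotlib 3.10.9. Positions are 1-based. The steps were tested on simulated data. With 1 library per group no test was made. Members, lists and limits were chosen with earlier results of these data known. Named peaks were, in each distance class, the 3 with the highest −log10 q and the widest, plus those nearest the limits and the 3 largest clusters. Alternatives covered overlap, list length, strength, distance, width and clustering.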

Additional observations from a re-analysis of the deposited data

How the results depend on the processing

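The share of Ctrl-Specific peaks depended on how DN peaks were counted and on strength. It was 38.3% when a DN peak had to cover 50% of the Ctrl peak, 27.6% when DN peaks within 1 kb counted as shared, 42.6% with the DN list shortened by −log10 q to the length of the Ctrl list, 40.5% with DN peaks of at least 8 fragments, 3.57% at a −log10 q of at least 4, 17.2% among the stronger 50% of Ctrl peaks and 33.4% with chromosome 4 kept whole. With the shortened DN list, the shares under 1 kb, at 1 to 10 kb and over 10 kb were 6.47%, 31.3% and 62.3%. From centre to centre they were 6.2%, 47.2% and 46.6%. Among the 57 members with a −log10 q of at least 4, 12.3% (5.08 to 23.7) lay under 1 kb and 47.4% (34.0 to 61.0) over 10 kb. Both intervals hold the shares over all members. The median percentiles by class were 36.0, 36.1 and 33.3 when ranked by width, and the median widths at 1 to 10 kb and over 10 kb were 345 and 314 bp without peaks at the lowest −log10 q. The share in clusters was 11.7% at 5 kb, 22.9% at 25 kb, 21.6% with DN peaks allowed between members, 9.65% for the stronger 50% of members and 25.1% with members found anew against the shortened DN list. Of 44 alternatives, 25 moved a value outside the interval or range of the reported result and 19 did not. The alternative's own interval was not used for this label, so a moved value need not be a real difference. A shorter DN list leaves fewer overlaps by construction, and the cause of the other shifts was not tested.

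The ratio of the highest to the lowest chromosome share, 1.73, was 1.57, 2.15 and 1.92 under its alternatives. Its range of 1.28 to 2.38 came from dividing the limits of both chromosomes' intervals and is not a 95% interval. Both were picked as the extremes of 25 chromosomes, so the ratio exceeds 1 by construction. No paired analysis was possible because Ctrl and DN have 1 H3K4me3 library each, and none could be left out. The alternatives that need gene starts or genome sequence were not run. The estimated floor of 8 fragments in the Ctrl list limits what can be read from single weak peaks.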

Other observations

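Ctrl-Specific peaks near chromosome ends belong to no comparison above. The right end of a chromosome was taken as the end of its last listed peak. That of chromosome 4 lies in the part left out. Within 2 Mb of an end lay 707 of them (13.5%, 12.6 to 14.4) and 13.1% of the Overlapped Peaks (12.4 to 13.7). By distance to the nearest DN peak, 16.9% of members under 1 kb (14.3 to 19.8), 16% at 1 to 10 kb (14.5 to 17.7) and 10.1% over 10 kb (8.90 to 11.4) were within 2 Mb of an end.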
